A study of Homo sapiens with 18 samples.

Results

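Transcripts of 10 genes of cell junctions and of the epithelial-mesenchymal transition were followed in HEK293 cells that had been made to express a RHOX homeobox gene. The 10 genes are CLDN1, OCLN, TJP1, CDH1, CDH2, EPCAM, SNAI1, SNAI2, ZEB1 and ZEB2. They were found in the table of expression values as every transcript cluster, the unit in which this array reports a gene, whose annotated symbols all belonged to the 10. This gave 11 clusters for 9 of the genes, out of 33297 clusters on the array, of which 21214 carried a gene symbol and were tested. EPCAM and ZEB2 have 2 clusters each. OCLN has no cluster of its own: its signal is shared with the pseudogene OCLNP1, so it is described here as "OCLN with OCLNP1" and not counted among the 11.

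HEK293 is an established line derived from human embryonic kidney. A lipid reagent (Lipofectamine) carried in an OriGene plasmid encoding RHOXF1, one encoding RHOXF2, or the control vector. Cells were harvested at 24 h or at 48 h, and each of the 6 groups holds 3 arrays, called biological triplicates in the series text. The groups are thus RHOXF1, RHOXF2 and control at 24 h, and the same at 48 h. The treatment text names pCMV6-AC-GFP beside the RHOX clones and does not state whether those clones also carry GFP. Transfection was transient, so a culture can hold cells with and without the plasmid, and a higher level per cell and more responding cells cannot be told apart in these bulk samples. All 24 h arrays carry lower array numbers than all 48 h arrays, so time and array series cannot be told apart either.

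Tight junctions seal neighbouring epithelial cells at their apical side. Claudins such as CLDN1 form the sealing strands, occludin (OCLN) is a membrane protein of the same strands, and ZO-1 (TJP1) ties them to actin below the membrane. E-cadherin (CDH1) holds epithelial cells together in adherens junctions, N-cadherin (CDH2) does so in neural and mesenchymal cells, and EPCAM is an epithelial adhesion protein. SNAI1, SNAI2, ZEB1 and ZEB2 are zinc finger repressors of epithelial genes, CDH1 above all. They bind the E-box CAGGTG, and the miR-200 microRNAs in turn repress ZEB1 and ZEB2.

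The members were chosen by measured values of these arrays. SNAI1 was selected on its higher level in RHOXF1 than in control cells at 24 h, and CLDN1 on its higher level in RHOXF1 than in control cells at 48 h. The values of these comparisons, and of others that rest on the RHOXF1 arrays, are therefore given as a description without a test. RHOXF2 against control and control at 48 h against 24 h were tested, but they share the control arrays with the choice of SNAI1 and CLDN1. Values are log2 RMA signals. They can be compared between arrays for 1 cluster, but not between clusters as amounts of RNA, because probes differ in affinity. Differences are in log2 units with limma's standard error (SE), and a difference passed where the Benjamini-Hochberg adjusted p over all 21214 clusters was under 0.05.

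Both transfected genes read high on the arrays labelled with them. The RHOXF1 cluster read 12.1 to 12.3 on RHOXF1 arrays, 6.94 to 9.12 on RHOXF2 arrays and 5.67 to 6.56 on control arrays, and the cluster shared by RHOXF2 and RHOXF2B read 12.8 to 13.0 on RHOXF2 arrays against 6.44 to 7.12 on control arrays. The first principal component, with 34.1% of the variance, ran from -17.2 to -8.71 on 24 h arrays. On 48 h arrays it ran from 9.36 to 26.3, apart from the third RHOXF2 array, which had -4.48. Some member results that use that array are given without it too. The member counts and the results of other clusters are given only with it. Of 7 HEK293 genes, the neurofilament genes NEFL and NEFM read 12.5 to 13.0, VIM 11.1 to 11.9, KRT8 8.56 to 9.87, KRT18 9.18 to 9.99, INA 7.48 to 8.79 and PAX2 6.40 to 6.86. Of 4 blood cell genes PTPRC was lowest, at 3.41 to 3.80, and CD14 highest, at 5.42 to 6.12. Of 4 fibroblast genes DCN was lowest, at 3.32 to 3.81, while the collagen genes COL3A1 and COL1A1 read 6.80 to 7.25 and 7.66 to 8.10.

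Within each array the members lay at very different brightness. SNAI2 was at the 97.5 to 98.1 percentile of all clusters, and TJP1, CDH2 and ZEB1 lay between the 82.1 and 92.6 percentiles. The cluster of OCLN with OCLNP1 lay between the 82.9 and 86.9 percentiles. CLDN1 (30.0 to 45.0), CDH1 (35.2 to 48.2), SNAI1 (40.0 to 53.5) and both EPCAM clusters (22.1 to 39.2) were in the dim part of the array. Of the ZEB2 clusters, 8055624 lay at the 65.7 to 72.2 percentile, while 8055639, which rests on a single cDNA record, lay at 15.3 to 28.9. The 2 members that the RHOXF1 comparisons brought forward, CLDN1 and SNAI1, are thus both dim clusters on this array.

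**Figure D1:**
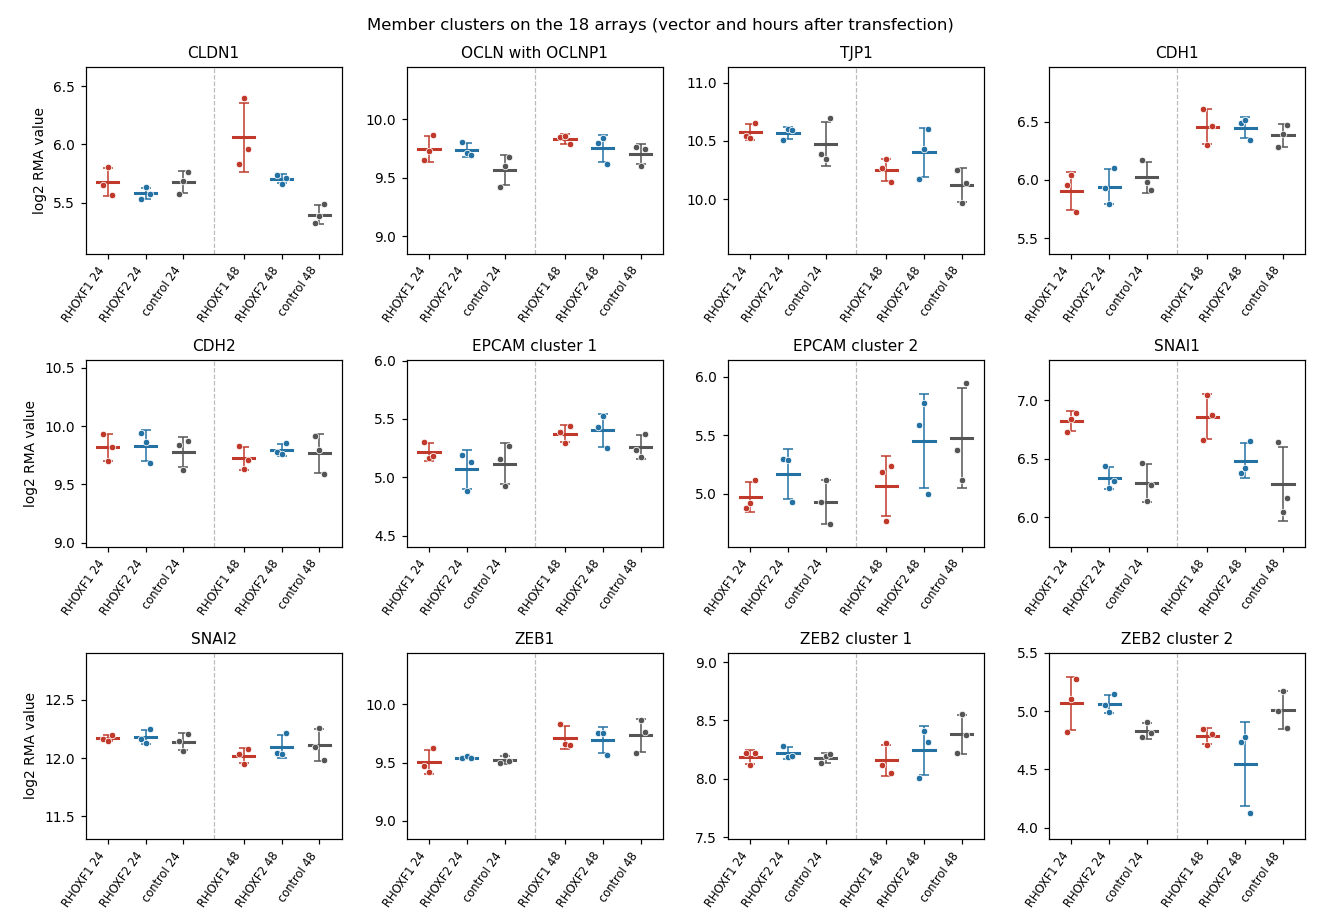
Log2 RMA value (vertical axis) of the 11 member clusters and of OCLN with OCLNP1 on each array, by vector and hours after transfection; dots are arrays, thick bars group means and thin bars the SD of 3 arrays. CLDN1 on RHOXF1 arrays at 48 h (5.83 to 6.39) lies above its values on control arrays (5.33 to 5.49), and SNAI1 lies above control on RHOXF1 arrays at both times; EPCAM cluster 1 and 2 are 8041853 and 8098439, ZEB2 cluster 1 and 2 are 8055624 and 8055639.

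CLDN1 was level with control in RHOXF1 cells at 24 h and higher at 48 h. At 48 h its 3 arrays read 5.83, 6.39 and 5.96 in RHOXF1 cells, against 5.33, 5.38 and 5.49 in control cells. RHOXF2 arrays at 48 h read 5.74, 5.66 and 5.71. So at 48 h all RHOXF1 arrays lay above all RHOXF2 arrays, and these above all control arrays. At 24 h the values were 5.66, 5.80 and 5.57 for RHOXF1, 5.53, 5.63 and 5.57 for RHOXF2, and 5.58, 5.69 and 5.76 for control, and the 3 groups overlapped.

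As differences, CLDN1 was 0.66 ± 0.11 (SE, n = 3 each) higher in RHOXF1 than in control cells at 48 h, which is 1.58-fold, and differed by 0.00 ± 0.11 at 24 h. RHOXF1 replicate 2 at 48 h was the highest array, and without it the difference was 0.50. The mean CLDN1 value at 48 h minus that at 24 h was 0.39 with RHOXF1, 0.13 with RHOXF2 and -0.28 with control. Selecting CLDN1 on RHOXF1 above control at 48 h favours high RHOXF1 and low control arrays at that time. Nothing is therefore read from the opposite signs. In RHOXF2 cells CLDN1 was 0.31 ± 0.11 above control at 48 h, with all 3 arrays above all control arrays, and did not pass (limma adjusted p = 0.281). RHOXF1 exceeded RHOXF2 by 0.36 ± 0.11 at 48 h, and by 0.19 without RHOXF1 replicate 2. The effect of RHOXF1 on CLDN1 at 48 h minus that at 24 h was 0.66 ± 0.16. For RHOXF2 the same quantity was 0.40 ± 0.16 and did not pass (limma adjusted p = 0.557).

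The DNA before the start site of the tight junction genes is shown because SNAI and ZEB proteins are known for binding E-boxes in promoters of this kind. Each line gives the 250 bases before a RefSeq transcript start in build GRCh38.p14, on the gene's strand. Capitals mark CAGGTG, which was searched together with its reverse complement CACCTG. The windows are chr3:190322447-190322696 on the minus strand for CLDN1, chr5:69492297-69492546 on the plus strand for the first of 2 OCLN starts, and chr15:29969050-29969299 on the minus strand for the first of 4 TJP1 starts.
CLDN1: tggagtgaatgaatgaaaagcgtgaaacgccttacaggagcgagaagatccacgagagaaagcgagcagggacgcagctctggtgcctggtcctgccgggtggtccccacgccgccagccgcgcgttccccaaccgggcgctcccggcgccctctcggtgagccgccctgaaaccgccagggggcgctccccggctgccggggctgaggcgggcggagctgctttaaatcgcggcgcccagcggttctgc
OCLN: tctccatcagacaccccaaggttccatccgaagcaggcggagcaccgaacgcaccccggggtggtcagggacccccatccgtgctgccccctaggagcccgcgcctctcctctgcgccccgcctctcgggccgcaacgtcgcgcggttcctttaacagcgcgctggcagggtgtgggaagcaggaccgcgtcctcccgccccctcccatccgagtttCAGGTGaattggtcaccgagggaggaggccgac
TJP1: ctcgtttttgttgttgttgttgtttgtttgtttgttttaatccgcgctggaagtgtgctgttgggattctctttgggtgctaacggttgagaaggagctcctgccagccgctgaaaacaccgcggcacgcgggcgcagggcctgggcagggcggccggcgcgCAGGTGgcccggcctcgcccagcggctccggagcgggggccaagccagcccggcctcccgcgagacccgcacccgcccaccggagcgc
The motif occurred once in the OCLN window, starting 33 bases before the transcript start, and once in the TJP1 window, 88 bases before it. It did not occur in the CLDN1 window. Over all 35116 RefSeq windows of this length, 17.5% held it. The second OCLN window held it once, the other 3 TJP1 windows, the single ZEB2 window and both CDH2 windows held none, and of 7 ZEB1 windows the first held 1 and the third 2. The 4 letters TAAT, the core of homeodomain binding sites, were searched with their reverse complement ATTA. They were absent from the CLDN1 window and both OCLN windows. Of 4 TJP1 windows the first held them 1 time and the fourth 3 times, the ZEB2 window held them 3 times, each CDH2 window 1 time, and 4 of 7 ZEB1 windows 1 time each. Over all windows 47.4% held them. No window of CDH1, EPCAM, SNAI1 or SNAI2 is reported, so the motif counts do not cover those members.

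TJP1 overlapped control with either vector. At 48 h TJP1 read 10.27, 10.34 and 10.15 in RHOXF1 cells and 10.18, 10.43 and 10.60 in RHOXF2 cells, against 10.26, 9.97 and 10.14 in control cells. RHOXF2 arrays tended higher but overlapped control, and the difference of 0.28 ± 0.11 did not pass (limma adjusted p = 0.321). It was 0.18 without RHOXF2 replicate 3. OCLN with OCLNP1 lay clear of control in 2 of the 4 comparisons, by small differences. At 48 h it read 9.85, 9.86 and 9.79 in RHOXF1 cells, against 9.76, 9.60 and 9.74 in control cells. At 24 h it read 9.81, 9.71 and 9.70 in RHOXF2 cells, against 9.42, 9.60 and 9.67 in control cells. In both cases all 3 arrays with the vector lay above all control arrays, while RHOXF1 at 24 h and RHOXF2 at 48 h overlapped control. Of all clusters, 7.17% lay above control in this way with RHOXF1 at 48 h and 3.89% with RHOXF2 at 24 h. The difference from control was 0.18 ± 0.09 with RHOXF1 and 0.18 ± 0.09 with RHOXF2 at 24 h, and 0.13 ± 0.09 with RHOXF1 and 0.05 ± 0.09 with RHOXF2 at 48 h. The RHOXF2 differences of this shared cluster did not pass (limma adjusted p = 0.648 at 24 h and 0.874 at 48 h).

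SNAI1 was higher in RHOXF1 than in control cells at both times. At 24 h it read 6.73, 6.84 and 6.89 in RHOXF1 cells and 6.44, 6.25 and 6.31 in RHOXF2 cells, against 6.47, 6.14 and 6.27 in control cells. At 48 h it read 6.66, 7.05 and 6.88 in RHOXF1 cells and 6.38, 6.42 and 6.65 in RHOXF2 cells, against 6.64, 6.05 and 6.17 in control cells. Every RHOXF1 array lay above every control and RHOXF2 array of its time, though at 48 h the lowest RHOXF1 array cleared the highest of the others only narrowly. RHOXF2 and control overlapped at both times.

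The SNAI1 difference of RHOXF1 from control was 0.53 ± 0.13 at 24 h and 0.58 ± 0.13 at 48 h (SE, n = 3 each), or 1.44-fold and 1.49-fold. The effect at 48 h minus that at 24 h was 0.05 ± 0.19. SNAI1 was selected at 24 h and CLDN1 at 48 h, so no contrast in timing between the 2 genes is read from these values. Leaving out 1 array at a time moved the SNAI1 difference from control between 0.45 and 0.62 at 24 h, and between 0.46 and 0.76 at 48 h. The lower control arrays at 48 h were replicates 2 and 3, which also lay farthest out on the first principal component, at 23.7 and 26.3. RHOXF1 exceeded RHOXF2 by 0.49 ± 0.13 at 24 h and by 0.38 ± 0.13 at 48 h. In RHOXF2 cells SNAI1 differed from control by 0.04 ± 0.13 at 24 h (limma adjusted p = 0.975) and by 0.20 ± 0.13 at 48 h (limma adjusted p = 0.58). Leaving out 1 array moved the 48 h value between 0.08 and 0.38. The 95% intervals of those 2 differences ran from -0.24 to 0.32 and from -0.08 to 0.48.

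**Figure D2:**
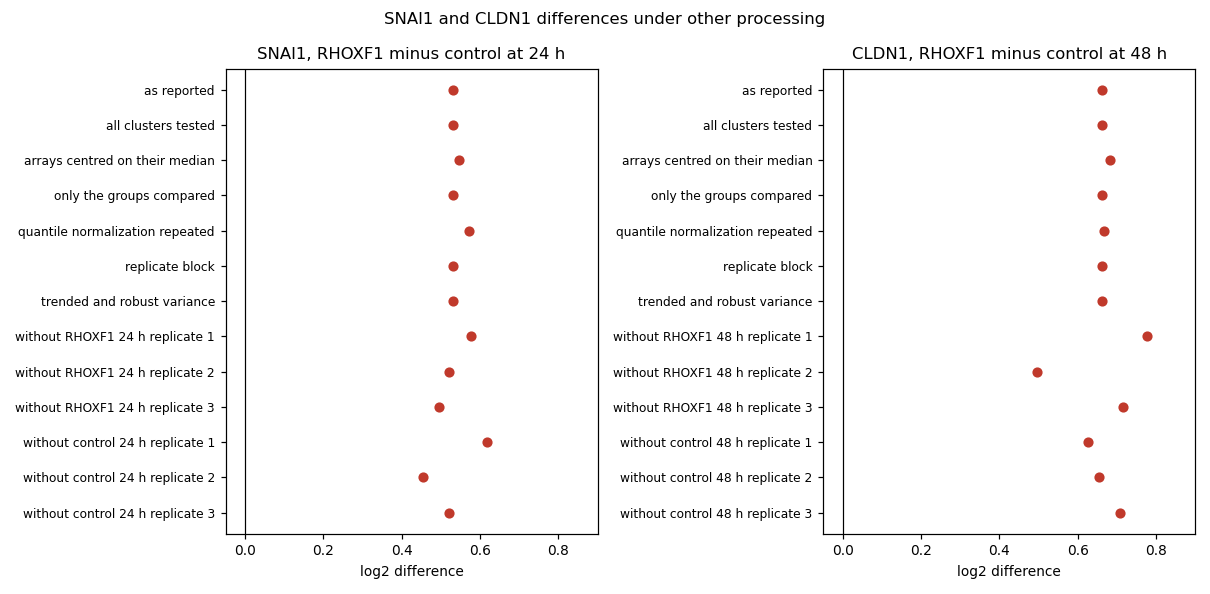
Log2 difference (horizontal axis) of SNAI1 in RHOXF1 minus control cells at 24 h and of CLDN1 in RHOXF1 minus control cells at 48 h, as reported and under each other way of processing; a dot is 1 estimate. SNAI1 runs from 0.45 to 0.62 and CLDN1 from 0.50 to 0.78, the lowest CLDN1 value being that without RHOXF1 replicate 2. The 2 genes were selected on these same differences, so the range is a description and no support for them.

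The other transition repressors did not follow SNAI1. SNAI2 kept within 0.09 of control in every comparison of a RHOX vector with control, with 12.03, 11.95 and 12.08 in RHOXF1 cells and 12.04, 12.04 and 12.21 in RHOXF2 cells at 48 h, against 12.09, 12.26 and 11.98 in control cells. ZEB1 differed from control by -0.04 to 0.02 over the 4 comparisons. The SEs were 0.08 for SNAI2 and 0.09 for ZEB1, so these bright clusters were measured more tightly than SNAI1. The ZEB2 cluster 8055624 differed from control by 0.00 ± 0.10 with RHOXF1 and 0.04 ± 0.10 with RHOXF2 at 24 h. At 48 h the differences were -0.23 ± 0.10 with RHOXF1 and -0.14 ± 0.10 with RHOXF2, and neither group was separate from control. Leaving out 1 array moved these between -0.31 and -0.14 with RHOXF1 and between -0.22 and -0.02 with RHOXF2.

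The dim ZEB2 cluster 8055639 was on opposite sides of control at the 2 times. At 24 h it read 5.05, 4.99 and 5.15 in RHOXF2 cells, against 4.78, 4.91 and 4.81 in control cells. At 48 h it read 4.73, 4.78 and 4.13 in RHOXF2 cells, against 5.00, 5.17 and 4.85 in control cells. RHOXF2 arrays were all above control at 24 h and all below it at 48 h. The differences were 0.23 ± 0.14 (limma adjusted p = 0.739) and -0.46 ± 0.14 (limma adjusted p = 0.23), and the change between them, -0.69 ± 0.20, did not pass either (limma adjusted p = 0.508). Replicate 3 at 48 h, the array that stood apart, held the lowest value, and without it the 48 h difference was -0.25 and the change -0.48. The RHOXF1 difference was 0.23 ± 0.14 at 24 h and -0.22 ± 0.14 at 48 h.

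Cadherins and EPCAM did not separate by vector. CDH1 read 6.60, 6.30 and 6.46 in RHOXF1 cells and 6.49, 6.52 and 6.34 in RHOXF2 cells at 48 h, against 6.28, 6.39 and 6.47 in control cells. Its differences from control ran from -0.12 to 0.08 over the 4 comparisons, with an SE of 0.11. CDH2 differed from control by -0.04 to 0.05. The EPCAM cluster 8041853 differed from control by -0.05 to 0.14. The other, 8098439, was the noisiest member, with an SE of 0.20. At 48 h it read 5.19, 4.77 and 5.23 in RHOXF1 cells and 5.58, 5.77 and 5.00 in RHOXF2 cells, against 5.37, 5.12 and 5.95 in control cells. Its RHOXF1 difference of -0.42 ± 0.20 was -0.18 without control replicate 3 and -0.60 without control replicate 2, and in EPCAM 8041853 the difference was 0.12 ± 0.10. With RHOXF2 at 48 h EPCAM 8098439 differed from control by -0.03, and by 0.20 without RHOXF2 replicate 3.

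**Figure D3:**
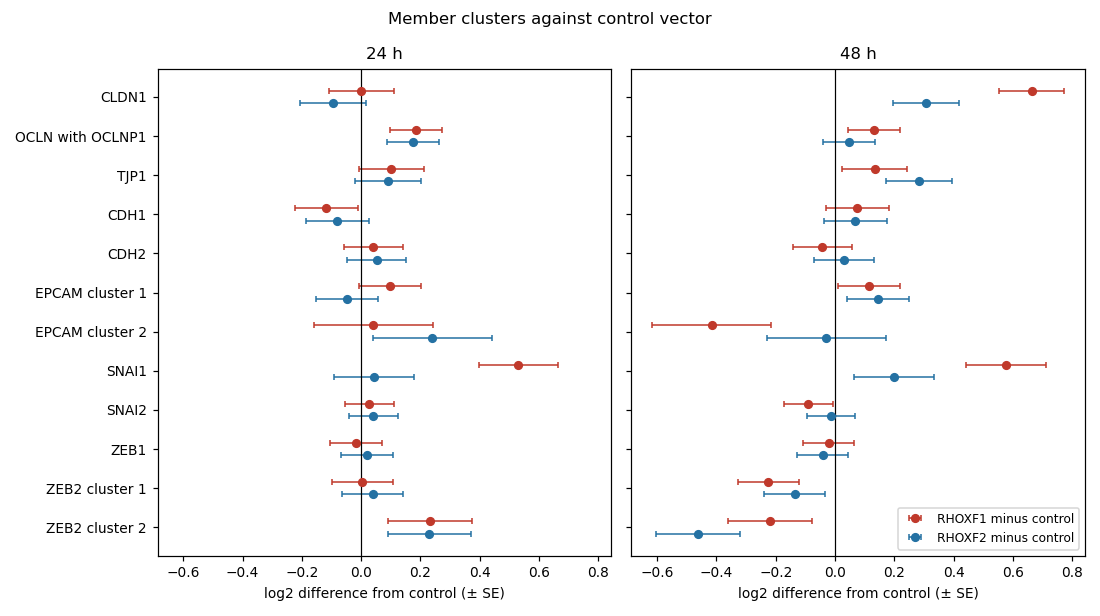
Log2 difference from control (horizontal axis, with the SE of the fit as bars) of the member clusters and of OCLN with OCLNP1, at 24 h and at 48 h, for RHOXF1 and RHOXF2. SNAI1 with RHOXF1 stands at 0.53 at 24 h, and CLDN1 and SNAI1 with RHOXF1 stand at 0.66 and 0.58 at 48 h, where CLDN1 with RHOXF2 is at 0.31.

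Counted over the members, none of 11 clusters passed in RHOXF2 against control at 24 h, where 0.00943% of all clusters did, and none at 48 h, where 0.0943% did (limma). At an unadjusted p under 0.05 there were 0 of 11 members at 24 h and 3 of 11 at 48 h (CLDN1, TJP1 and ZEB2 8055639), where 7.98% and 12.2% of all clusters were. Nothing is read from the 48 h count. CLDN1 was chosen against the same control arrays. Without RHOXF2 replicate 3 at 48 h the TJP1 and ZEB2 8055639 differences shrank to 0.18 and -0.25. All 3 RHOXF2 arrays lay above control for 1 of 11 members at 24 h (ZEB2 8055639), beside 3.89% of all clusters, and below control for none, beside 7.18%. At 48 h 1 of 11 lay above (CLDN1), beside 6.59%, and 1 of 11 below (ZEB2 8055639), beside 5.24%. The median member difference was 0.04 at 24 h and 0.03 at 48 h, and over all clusters 0.00 and 0.01. In the difference of the RHOXF2 effect between the times, none of 11 members passed, where 0.0141% of all clusters did, and 2 had an unadjusted p under 0.05, as had 8.75% of all clusters. The control arrays used here also served the choice of SNAI1 and CLDN1, so nothing is read from that count either.

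For RHOXF1 the counts are a description only. Against control, none of 11 members was among the clusters that passed at 24 h (0.00471% of all) or at 48 h (0.00943%), and nothing is read from these counts. Clear of the control arrays were SNAI1 at 24 h (above, as in 4.6% of all clusters, while 4.93% lay below), CLDN1 and SNAI1 at 48 h (above, 7.17%) and ZEB2 8055639 at 48 h (below, 5.39%). Against RHOXF2, SNAI1 lay above at 24 h (3.84% of all clusters) and CLDN1 and SNAI1 at 48 h (4.78%). No member lay below at 24 h (2.36%) or at 48 h (4.46%). None of 11 passed in these 2 comparisons, where 0.0141% and 0.0519% of all clusters did. In the difference of the RHOXF1 effect between the times no cluster passed (0%) in limma, and 998 clusters had an unadjusted p under 0.05.

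Members passed the test between the times. In control cells at 48 h against 24 h, 2 of 11 members passed (limma), where 17.8% of all clusters did, so the share is close to the background. CDH1 rose: control arrays read 6.28, 6.39 and 6.47 at 48 h, against 6.17, 5.98 and 5.91 at 24 h, a difference of 0.36 ± 0.11 (limma adjusted p = 0.0279). TJP1 fell: control arrays read 10.26, 9.97 and 10.14 at 48 h, against 10.39, 10.34 and 10.69 at 24 h, a difference of -0.35 ± 0.11 (limma adjusted p = 0.0345). The groups did not overlap for either gene. Over the same hours the CDH1 means differed by 0.55 with RHOXF1 and 0.51 with RHOXF2, and the TJP1 means by -0.32 and -0.16. Neither call held in every alternative. Both were lost with all clusters tested and with only the groups compared, where the differences were unchanged. CDH1 no longer passed in 4 of the 6 fits that left out a control array, where its difference was 0.30 to 0.35, and TJP1 in 3 of 6, where it was -0.36 to -0.25.

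Other members had values off their 24 h level without passing. ZEB1 was 0.21 ± 0.09 higher in control cells at 48 h than at 24 h (limma adjusted p = 0.0956), CLDN1 was 0.28 ± 0.11 lower (limma adjusted p = 0.0881) and EPCAM 8098439 was 0.55 ± 0.20 higher (limma adjusted p = 0.065). The EPCAM difference ran from 0.31 without control replicate 3 at 48 h to 0.73 without control replicate 2 at 48 h, where it passed (limma adjusted p = 0.0336). It also passed with quantile normalization repeated (0.62, limma adjusted p = 0.0399), and ZEB1 passed without control replicate 1 at 48 h (0.29, limma adjusted p = 0.0334). At 48 h all control arrays lay above those of 24 h for CDH1, ZEB1 and ZEB2 8055624, 3 of 11 members beside 14.7% of all clusters. They lay below for CLDN1 and TJP1, 2 of 11 beside 15.7%. CDH2, SNAI1 and SNAI2 were within 0.03 of their 24 h level.

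The microRNAs that pair with ZEB1 and ZEB2 transcripts are shown with their seed, bases 2 to 8, in capitals, since the seed sets them into 2 groups. The sequences are the RefSeq mature forms (GRCh38.p14). The loci of MIR200B, MIR200A and MIR429 lie on chromosome 1, and those of MIR200C and MIR141 on chromosome 12.
hsa-miR-200b-3p: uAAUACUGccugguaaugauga
hsa-miR-200c-3p: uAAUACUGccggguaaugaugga
hsa-miR-429: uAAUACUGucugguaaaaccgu
hsa-miR-200a-3p: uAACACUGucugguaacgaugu
hsa-miR-141-3p: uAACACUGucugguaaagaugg
The first 3 share 1 seed and the last 2 the other. These clusters do not tell a mature microRNA from its precursor. None of the 5 passed in any of the 4 comparisons with control. MIR200B, of the first seed group, had the smallest p with RHOXF2 at 48 h. It read 6.48, 6.60 and 6.76 in RHOXF2 cells, ordered by value, against 6.22, 6.33 and 6.37 in control cells, a difference of 0.31 ± 0.10 (limma adjusted p = 0.236). At 24 h the same difference was 0.23 ± 0.10 (limma adjusted p = 0.562), while MIR429 of the same seed group differed by -0.28 ± 0.10 (limma adjusted p = 0.496).

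In all, 10 lists of other junction and transition genes, with 126 measured genes, covered other claudins, tight junction plaque proteins, polarity proteins, adherens junctions, desmosomes, further transition factors, epithelial factors, mesenchymal markers, epithelial markers and miR-200. In RHOXF2 against control 0 of 126 passed at either time (limma), where 0.00943% of all clusters did at 24 h and 0.0943% at 48 h. At an unadjusted p under 0.05 there were 17 at 24 h and 11 at 48 h, beside 7.98% and 12.2% of all clusters. For RHOXF1 the count was 0 of 126 at both times, where 0.00471% and 0.00943% of all clusters passed. There were 8 and 8 at an unadjusted p under 0.05, beside 4.76% and 7.22% of all clusters. Apart from miR-200 at 24 h (-0.22), list medians in RHOXF2 against control lay between -0.10 and 0.07 at 24 h, and all 10 lay between -0.03 and 0.06 at 48 h, beside 0.00 and 0.01 over all clusters.

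Named list genes with the smallest p in RHOXF2 against control at 48 h were of either sign. The polarity gene SCRIB was 0.29 ± 0.09 higher (limma adjusted p = 0.228). RBM47, an RNA-binding protein, was 0.40 ± 0.13 higher (limma adjusted p = 0.241). LSR and MARVELD2, which both sit at the corners where 3 epithelial cells meet, were 0.48 ± 0.17 and 0.48 ± 0.19 higher (limma adjusted p = 0.27 and 0.329). KLF8, a zinc finger factor, was -0.32 ± 0.11 (limma adjusted p = 0.27), and FN1, fibronectin, -0.47 ± 0.18 (limma adjusted p = 0.322). None of them passed. All these differences include RHOXF2 replicate 3 at 48 h, the array that stood apart, and were not computed without it.

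With time in control cells, 26 of 126 list genes passed (20.6%, beside 17.8% of all clusters), 22 higher and 4 lower at 48 h. The count was 13 without control replicate 2 at 24 h, 13 without control replicate 2 at 48 h, 16 without control replicate 3 at 48 h, and 14 when only the control arrays were fitted. Mesenchymal markers gave 6 of 12 higher and none lower, with a list median of 0.32 beside -0.03 over all clusters. Among them FN1 rose by 1.34 ± 0.18 (limma adjusted p = 0.000415) and the matrix protease gene MMP2 by 0.69 ± 0.12 (limma adjusted p = 0.00151). The other 4 were ITGA5, SPARC, VIM and TNC, at 0.37 to 0.61. That count was 2 of 12 without control replicate 2 at 24 h, 3 of 12 without control replicate 2 at 48 h, and 3 of 12 when only the control arrays were fitted. FN1 and MMP2 passed in every alternative in which they were tested.

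In the junction lists, 2 of 14 adherens junction genes, 3 of 15 tight junction plaque genes and 1 of 15 desmosome genes passed, all higher. Of 14 polarity genes 4 passed higher and 2 lower, and of 20 other claudins 1 each way. Over all clusters 17.8% passed, 2098 higher and 1674 lower, and nothing particular to junction genes is read from these counts. The plakoglobin gene JUP, shared by adherens junctions and desmosomes, was 0.47 ± 0.11 higher (limma adjusted p = 0.0072), and JAM2, a junctional adhesion molecule, 0.53 ± 0.12 higher (limma adjusted p = 0.00773). The polarity scaffold gene PATJ was 0.66 ± 0.12 higher (limma adjusted p = 0.0018), while SCRIB was 0.38 ± 0.09 lower (limma adjusted p = 0.00678). These 4 passed in every alternative in which they were tested, as did CD24 (0.76 ± 0.17) and KLF8 (0.60 ± 0.11). CLDN7 rose by 0.46 ± 0.11 and CLDN9 fell by 0.37 on the log2 scale, the claudins that passed out of 20 others; CLDN7 no longer passed without control replicate 3 at 48 h, and CLDN9 without any of 4 control arrays. The other calls were AMOT, AMOTL1, PARD3, PRKCZ, LLGL1, CDH3, DSC2, TWIST1, KRT8 and PROM1 among the rises and CRB2 and KRT19 among the falls. Each of these was lost in some alternative, and LLGL1 and CRB2 in most of them. None of 11 epithelial transcription and splicing factors passed.

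**Figure D4:**
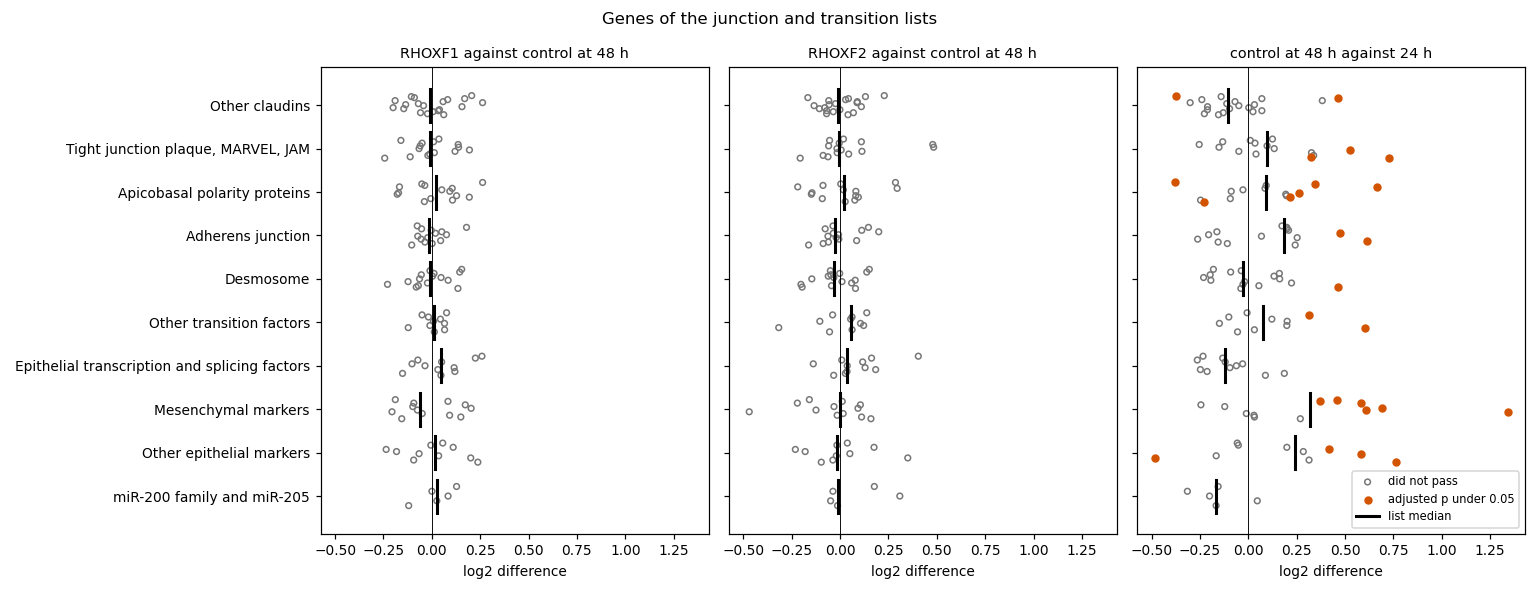
Log2 difference (horizontal axis) of each measured gene of the 10 lists in RHOXF1 against control at 48 h, RHOXF2 against control at 48 h and control at 48 h against 24 h; a dot is a gene, filled where its adjusted p was under 0.05, and a thick bar is the list median. No gene is filled in the vector comparisons, and 26 are filled in the comparison of times, 6 of them mesenchymal markers.

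Genes whose pattern over the 18 arrays was most like those of CLDN1 and SNAI1 were found by Pearson correlation after the mean of each time was subtracted, as a description, since the arrays of a group share vector and time. For CLDN1 these were FZD8, a Wnt receptor (r = 0.891, with 0.752 over the 9 arrays at 24 h and 0.959 over those at 48 h), KRTAP5-AS1 (0.882, with 0.562 and 0.927) and ISM1 (0.837, with 0.645 and 0.936). For SNAI1 they were FOSB (0.861, with 0.785 and 0.921), TUBB2A (0.856, with 0.860 and 0.855) and EGR1 (0.848, with 0.806 and 0.879). FOSB and EGR1 are immediate early genes, switched on quickly by growth and stress signals, and TUBB2A is a tubulin. CLDN1 and SNAI1 correlated with each other at 0.575, with 0.047 at 24 h and 0.774 at 48 h. CLDN1 and TJP1 correlated at 0.264, and SNAI1 and CDH1 at -0.216.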

How the data were processed

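Total RNA from transfected HEK293 cells was measured on 18 Affymetrix arrays, 3 per group. Per the sample descriptions they were of the Human Gene 1.0 ST type; an exon type is given in the series text. The log2 values were deposited by the authors after RMA in Expression Console 3.1, per the labels; the genome build is not given in the sources used here. All 21214 clusters with a symbol entered 1 linear model in R 4.3.3 with limma 3.58.1 (a mean per group, then eBayes), with 12 residual degrees of freedom, 6.50 prior degrees of freedom and a prior SD of 0.124. Tests were two-sided, with Benjamini-Hochberg adjustment per comparison at 0.05. The number of arrays limits the precision. Each p-value sets a difference against the spread between arrays within groups, pooled over all groups and drawn towards the prior.

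The members and lists were chosen with earlier results of these data known. All member clusters were named. From each list, every gene called and otherwise the 2 with the smallest p in RHOXF2 against control at 48 h were eligible, together with the 3 single-symbol clusters most correlated with CLDN1 and with SNAI1. OCLN with OCLNP1 was added outside the membership rule. Symbols came from the platform table supplied; microRNA and upstream sequences are RefSeq (GRCh38.p14). Residuals of same-numbered arrays correlated above 0.1 in 3 of 3 pairs of RHOXF1 with control and of RHOXF2 with control at 24 h. They did so in no such pair at 48 h. The numbers may thus pair the 24 h arrays, but arrays of unlike number were not compared, so pairing is not established. The tests use no block. The fit was tested on simulated data. Alternatives were a replicate block, a filter on dim clusters, repeated quantile normalization, centring on the median, a trended robust variance, all clusters, only the groups compared, and leaving out each array.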

Additional observations from a re-analysis of the deposited data

How the results depend on the processing

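Of the member differences under the other settings, 1342 kept a call and its direction, or stayed without a call and moved by less than 1 SD. Another 12 lost a call, 5 gained one and 6 others moved by more than that. No call reversed. Uncalled differences among the 1342 could change sign. The replicate block, dim filter, trended variance, all clusters and only the groups compared cannot change an estimate, so the 1342 is no measure of stability. The count of members passing was 0 as reported for RHOXF1 against control at 48 h and became 1, CLDN1, with arrays centred on their median (difference 0.68); since CLDN1 was selected on this comparison, nothing is read from it. Leaving out 1 array there gave 0 to 1. In control at 48 h against 24 h the count of 2 became 1 above the median level (5 members tested), 1 after centring, 3 with quantile normalization repeated, 0 with all clusters tested and 0 with only the groups compared; leaving out 1 array gave 0 to 3. With only those groups fitted 1595 clusters passed, 66.9% of them higher, against 3772 and 55.6% with all arrays. With the replicate block no member changed its call (2 members and 4272 clusters with time), while the list genes CRB2 and LLGL1 lost theirs. Same-numbered arrays correlated above 0.1 in 8 of 9 pairs at 24 h (0.0617 to 0.519) and 2 of 9 at 48 h (-0.346 to 0.244). The list counts under these alternatives were added after seeing the data. The filter on dim clusters gives no value for CLDN1, SNAI1, CDH1, EPCAM and ZEB2 8055639. The causes were not tested.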
